A study of Mus musculus with 18 samples.

Results

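The genotype by carfilzomib (CFZ) interaction at 24 h is the log2 response of Nrf1KO cells to CFZ less that of WT cells, gene by gene. A positive interaction means that a transcript ended higher in CFZ-treated Nrf1KO cells than the WT response would give, either because it rose further or because it fell less. RNA from NIH-3T3 cells, an established line of immortalized mouse fibroblasts, was sequenced from WT cells and from a CRISPR/Cas9 knockout line of Nrf1, each grown in DMEM with fetal bovine serum and given DMSO or CFZ (200 nM, 6 h or 24 h), with 3 biological replicates in every group. The interaction uses 12 of the 18 libraries: WT with DMSO, WT with CFZ for 24 h, Nrf1KO with DMSO and Nrf1KO with CFZ for 24 h. The sources used here give no exposure time for DMSO, and Nrf1KO is described as 1 line, so a property of that line and the loss of Nrf1 cannot be told apart. Of 23420 gene symbols, 11762 had enough reads to be tested. The 11695 described here are those left after 33 core proteasome subunits and 34 genes of the unfolded protein response (UPR) were set aside, because those 2 groups are what the study itself examined. Both set-aside lists were assembled from the study's text, an earlier account of these data and textbook knowledge, and need not match the study's own lists gene for gene.

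CFZ blocks the chymotrypsin-like site of the proteasome irreversibly. Nrf1 (gene Nfe2l1) is a transcription factor of the CNC-bZIP family that is made in the endoplasmic reticulum (ER), is normally degraded at once, and is released by p97 and processed when the proteasome is inhibited. It then binds antioxidant response elements next to a small Maf protein and raises transcription of proteasome genes, the bounce-back response. Its relative NRF2 binds the same element in antioxidant genes. Proteasome inhibition also activates heat shock factors, the PERK-ATF4-CHOP arm of the UPR, p53 and, in dividing cells, arrest.

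Counts per library ranged from 10069996 to 23917081 over the 12 libraries, and counts of replicates varied by 3.131% beyond sampling error (the biological coefficient of variation), which lets differences far below 2-fold be called. All 18 libraries correlated best with libraries of their own group. The targeted transcript was still counted in Nrf1KO cells. Levels are given in CPM, reads scaled to library size with TMM factors, or to library size alone for sums of markers. Nfe2l1 stood at 457, 437 and 449 CPM in the WT DMSO libraries and 174, 185 and 181 in the Nrf1KO DMSO libraries. With CFZ for 24 h it was 559, 555 and 580.0 CPM in WT and 209.5, 202 and 201 in Nrf1KO, without overlap between the lines in either treatment. The table also has a gene under the symbol Nrf1, which is nuclear respiratory factor 1 and unrelated. Fibroblast markers (10 of 10 tested) summed to 3.88e+04 to 4.15e+04 CPM in WT with DMSO, while markers of endothelial cells, leukocytes, muscle and adipocytes summed to at most 9.8 CPM in any of these 12 libraries, and Epcam, Cldn4, Cd3e, Sox10, Olig2, Plin1 and Lep had no read. Markers of epithelium summed to at most 158 CPM in WT with DMSO and 77.2 in Nrf1KO with DMSO, and neural markers to at most 40.7 CPM in WT and 63.8 in Nrf1KO with CFZ. The part of these small sums in the results below was not tested.

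Outside the set-aside genes, the response to CFZ at 24 h differed between the lines for 6971 of 11695 genes (59.6%) at a Benjamini-Hochberg adjusted p-value under 0.05, the threshold for a call throughout. The interaction was positive for 3478 of these and negative for 3493, where 29.7% and 30.0% of all genes tested were called in those directions. Most of these differences were small. The median over all 11695 genes was 0.01 on the log2 scale, and the 10th and 90th percentiles were -0.68 and 0.68. An interaction of at least 1, a 2-fold difference in response, was called for 470 genes in the positive and 515 in the negative direction (4.07% and 4.53% of all genes tested).

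**Figure D1:**
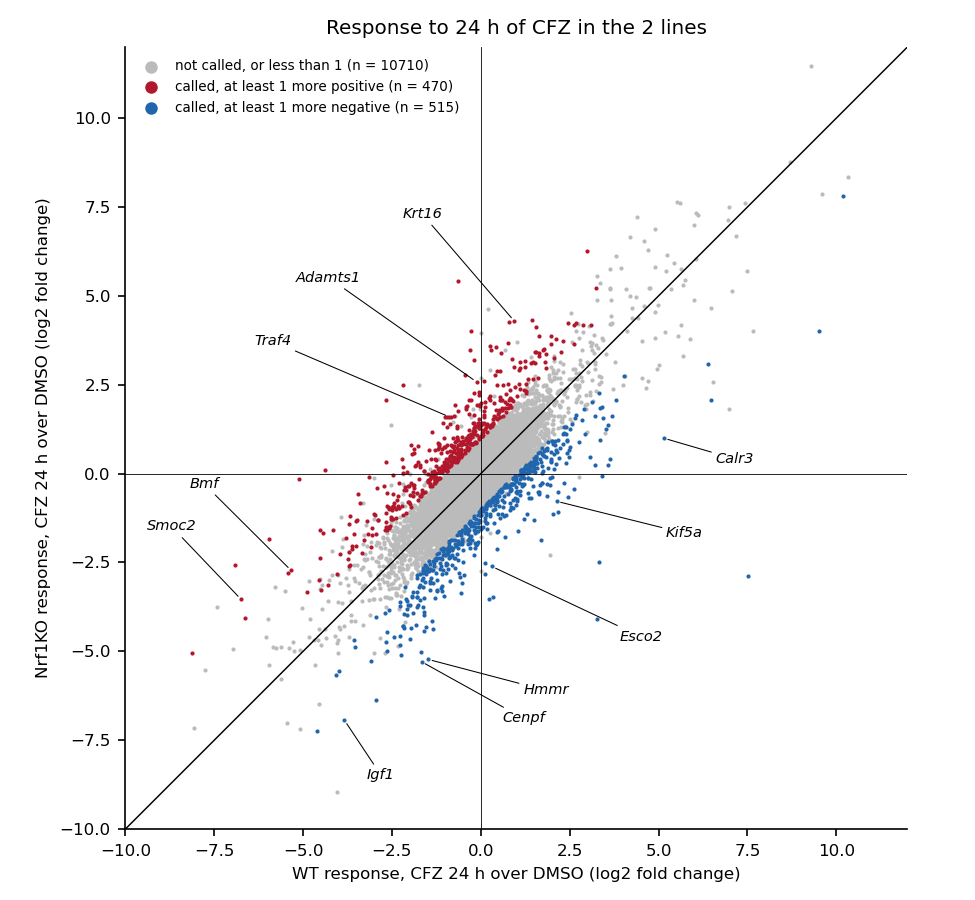
Each point is 1 of the 11695 genes outside the set-aside lists, placed by its WT response (x axis) and its Nrf1KO response (y axis) to 24 h of CFZ over DMSO, both as log2 fold changes; the diagonal marks equal responses. Red points (470 genes) lie at least 1 above the diagonal and blue points (515 genes) at least 1 below it, and most other genes sit near it. Points far from the centre often have few reads in 1 group.

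Opposite responses in the lines made up a minority of the larger differences. CFZ raised 43.2% of all genes tested in WT cells and lowered 40.5%, and it raised 44.4% and lowered 41.1% in Nrf1KO cells. Of the 470 genes with the larger positive interactions, 93 rose in both lines and rose further in Nrf1KO, 101 fell in both lines and fell less in Nrf1KO, 107 fell in WT but rose in Nrf1KO, 94 rose in Nrf1KO without a call in WT and 74 fell in WT without a call in Nrf1KO. Of the 515 with the larger negative interactions, 197 fell in both lines and fell further in Nrf1KO. A further 108 rose in WT and fell in Nrf1KO, 91 rose less in Nrf1KO, 57 rose in WT alone and 60 fell in Nrf1KO alone by these calls. The commonest form of a large negative difference was therefore a deeper fall, and the large positive differences were spread more evenly over the forms.

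Genes of cell division fell much further in Nrf1KO cells. Of the 27 mitosis genes tested, 26 had a negative interaction and 1 was not called, 20 of them reached at least 1 in size, and the median was -1.53 against 0.00489 over all genes tested. In each line 26 of the 27 fell with CFZ and 1 rose, with a median response of -1.54 in WT cells and -3.19 in Nrf1KO cells. With DMSO 8 of the 27 were higher and 5 lower in Nrf1KO cells, with a median difference of 0.01, where 25.7% of all genes tested were higher and 29.1% lower. The member without an interaction call was Ccnf, which encodes cyclin F and rose in both lines, with an interaction of -0.06 (adjusted p = 0.45, named after its value was seen). In bulk RNA, fewer dividing cells and less RNA per dividing cell cannot be told apart.

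The kinetochore protein gene Cenpf had the most negative interaction of the list. Its levels were 181, 185 and 173 CPM in the WT DMSO libraries, 58.2, 58.4 and 53.6 in WT with CFZ, 179, 154 and 158 in Nrf1KO with DMSO and 3.80, 5.27 and 3.23 in Nrf1KO with CFZ. The Nrf1KO libraries with CFZ lay far below all others, and the interaction was -3.63 ± 0.13 (log2, ± SE throughout; adjusted p = 4.6e-21). Kif2c, a kinesin that removes tubulin from kinetochore microtubules, went from 96.5, 104 and 102 to 33.9, 36.8 and 33.3 CPM in WT and from 115, 116 and 121 to 5.77, 6.05 and 5.71 in Nrf1KO, an interaction of -2.79 ± 0.09. The cyclins and kinases that drive entry into mitosis showed the same direction, with -2.37 for Ccna2, -2.07 for Ccnb1, -2.57 for Plk1 and -1.21 for Cdk1, while Foxm1, a transcription factor of this program, was at -1.52.

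Outside the list, several of the 12 most negative well-counted genes (a mean of at least 50 reads over the 12 libraries) also have roles in chromosome segregation or proliferation. Hmmr, which encodes a spindle-associated hyaluronan receptor, stood at 147, 151 and 144 CPM in WT with DMSO and 52.8, 53.4 and 51.9 with CFZ. In Nrf1KO it went from 150.2, 145 and 162 to 4.01, 4.77 and 3.36 CPM, and the interaction was -3.74 ± 0.10 (adjusted p = 4.4e-24). Nuf2, a subunit of the NDC80 kinetochore complex, had an interaction of -3.34 ± 0.11, Gen1, a nuclease that resolves joined chromatids, -3.04 ± 0.23, and Iqgap3, a scaffold protein of proliferating cells, -2.84 ± 0.15. Lrr1, the substrate receptor of a ubiquitin ligase that removes the replicative helicase, reached -2.81 ± 0.37, and Ankle1, a nuclease that acts on chromatin bridges, -3.43 ± 0.46. Both were low in the Nrf1KO libraries with CFZ (Lrr1 0.211, 0.499 and 0.127 CPM and Ankle1 0.211, 0.166 and 0.0634 CPM), so their size is less precise. Esco2, the acetyltransferase that locks cohesin onto replicated DNA, differed in form: it rose from 33.9, 34.6 and 36.5 to 44.7, 44.97 and 40.6 CPM in WT but fell from 35.8, 35.01 and 35.9 to 5.14, 5.88 and 6.34 in Nrf1KO, an interaction of -2.92 ± 0.10.

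**Figure D2:**
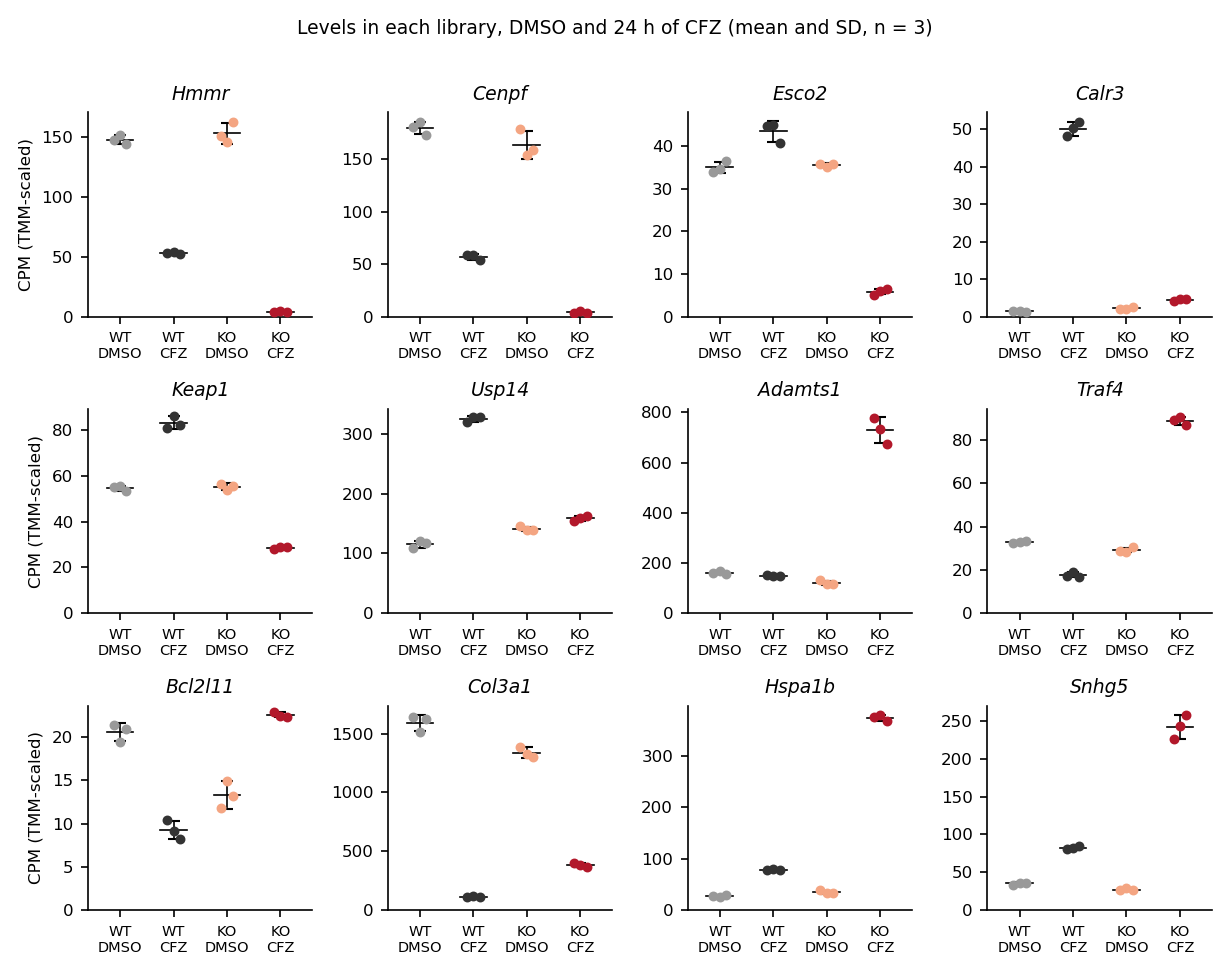
Level of 12 genes (TMM-scaled CPM, linear y axes from 0) in each of the 3 libraries of WT and Nrf1KO cells (KO) with DMSO or with CFZ for 24 h; points are libraries, the long bar the mean and the error bar the SD (n = 3). Hmmr and Cenpf are at most 5.27 CPM in the Nrf1KO libraries with CFZ, Calr3 reaches 48.2 to 51.9 CPM in WT and at most 4.69 in Nrf1KO, and Adamts1 rises in Nrf1KO alone.

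Mitotic genes are known to be driven through CCAAT boxes and the cell cycle homology region (CHR). Among the 12 most negative genes taken in order, Hmmr and Cenpf were the first with a listed promoter that holds both, so theirs are printed. Each covers 300 bases, from 250 before to 50 after the start site, as RefSeq places it on GRCm38.p6. The build that was used for counting is not given in the sources used here. Capitals mark CCAAT (or ATTGG on the other strand) and TTTGAA, one form of the CHR. Hmmr lies at chr11:40733388-40733687 and Cenpf at chr1:189688037-189688336, both on the minus strand.
Hmmr: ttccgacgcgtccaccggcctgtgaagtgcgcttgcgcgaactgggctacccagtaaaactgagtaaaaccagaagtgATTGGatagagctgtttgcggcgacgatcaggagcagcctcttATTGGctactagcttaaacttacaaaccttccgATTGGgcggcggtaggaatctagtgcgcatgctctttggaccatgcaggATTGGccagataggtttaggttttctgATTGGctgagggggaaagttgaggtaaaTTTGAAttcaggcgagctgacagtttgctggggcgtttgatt
Cenpf: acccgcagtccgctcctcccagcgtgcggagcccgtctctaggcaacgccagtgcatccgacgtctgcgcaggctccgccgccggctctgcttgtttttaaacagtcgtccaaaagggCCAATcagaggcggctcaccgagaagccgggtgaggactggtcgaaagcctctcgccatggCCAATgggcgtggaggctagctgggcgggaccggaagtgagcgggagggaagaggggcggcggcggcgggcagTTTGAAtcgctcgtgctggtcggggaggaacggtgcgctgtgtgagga
The Hmmr window holds 6 matches and the Cenpf window 3. CCAAT, searched on both strands, is in 20 of the 23 promoters found for the mitosis genes (87%; 22 of 27 genes matched the RefSeq table) and in 38.4% of the 11994 promoters of the genes tested. TTTGAA, searched on both strands and chosen after the values were seen, is in 16 of the 23 (69.6%) and in 12% of those of the genes tested. A match of letters is a description and no binding was measured.

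DNA replication genes also had mostly negative interactions. Of 29 tested, 22 were more negative and 2 more positive in Nrf1KO, with a median of -0.46, and 3 reached -1. With DMSO 23 of the 29 were already higher in Nrf1KO and 0 lower, with a median difference of 0.31. Among all genes tested, 25.7% were higher and 29.1% lower with DMSO. Tk1, thymidine kinase, fell from 62.4, 66.1 and 60.9 to 9.35, 9.89 and 9.98 CPM in WT and from 113, 114 and 109 to 6.20, 7.99 and 7.55 in Nrf1KO, an interaction of -1.24 ± 0.11. Rrm2, the regulated subunit of ribonucleotide reductase, was at -1.21 ± 0.08 and Cdc45, part of the replicative helicase, at -1.20 ± 0.09. The exceptions were Mcm7, another helicase subunit, at 0.60 ± 0.06 and the licensing factor Cdt1 at 0.19 ± 0.07 (adjusted p = 0.016), whose call was lost without WT DMSO replicate 2 (0.13) or Nrf1KO DMSO replicate 3 (0.15).

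Actin cytoskeleton genes had mostly negative interactions. Among 18 actin and smooth muscle contractile genes, 12 were more negative in Nrf1KO, 1 was more positive and 5 were not called. The median was -0.36. With DMSO 15 of the 18 were already lower in Nrf1KO and 1 higher, with a median difference of -0.45. The shares over all genes tested were 29.1% lower and 25.7% higher. Acta2, smooth muscle actin, fell from 495, 549 and 513 to 154, 160.3 and 156 CPM in WT and from 258, 244 and 234 to 26.1, 25.1 and 29.6 in Nrf1KO. That is an interaction of -1.46 ± 0.07, and the lines already differed with DMSO by -1.08. Cnn2, calponin, had an interaction of -1.46 ± 0.06, and Zyx, a focal adhesion protein that responds to tension, was the one more positive member (0.78 ± 0.05). The secreted proteins CTGF and CYR61, which are classical readouts of YAP and SRF activity, gave -2.07 ± 0.11 and -1.81 ± 0.08. Cyr61 rose from 49.5, 64.2 and 50.8 to 426, 407 and 426 CPM in WT but reached only 104, 95.97 and 98.7 CPM in Nrf1KO, and Ctgf fell in both lines. Of the Ctgf exon sequence, 23.2% is overlapped by a gene on the other strand, and it is not stated whether reads were counted by strand.

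Genes that work with the proteasome but are not core subunits divided. Of 20 assembly factors, activators and associated proteins, 11 had a negative interaction, 9 were not called and none was positive, and the median was -0.15. In the core proteasome genes that were set aside, all 33 were negative, with a median of -1.14. Usp14, the ubiquitin protease that sits on the proteasome, rose from 109, 119.9 and 117 to 319, 328 and 328 CPM in WT and went from 145, 139 and 139 to 154, 159 and 162 in Nrf1KO, an interaction of -1.33 ± 0.05. Pomp, the assembly chaperone of the catalytic core, was at -1.08 ± 0.07, Psme4, an activator cap, at -0.94 ± 0.05, and Adrm1, a ubiquitin receptor, at -0.68 ± 0.05. The interferon-linked members Psme1, Psmb9 and Psmb10 were not called, with -0.12, 0.64 and -0.06. Of the Usp14 exon sequence, 26% is overlapped by the gene Thoc1 on the other strand.

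Genes on the ubiquitin side of the pathway went both ways. Of 24 genes for ubiquitin, shuttles and p97 with its cofactors, 13 were more negative and 8 more positive. The p97 ATPase gene Vcp (-0.72 ± 0.05) and its cofactors Nsfl1c (-1.02 ± 0.05), Ubxn4 (-0.99 ± 0.05), Ufd1l (-0.87 ± 0.06) and Nploc4 (-0.82 ± 0.06) rose less in Nrf1KO. Nsfl1c, for instance, rose from 72.5, 76.7 and 75.8 to 223, 228 and 230.5 CPM in WT and from 59.6, 56.1 and 58.7 to 88.5, 85.5 and 87.4 in Nrf1KO. Ngly1, the glycanase that processes Nrf1 itself, fell in both lines and further in Nrf1KO (-1.05 ± 0.14). The polyubiquitin gene Ubb rose strongly in both lines and had a small interaction of 0.24. Zfand2a, an arsenite-inducible proteasome-binding protein, was more positive in Nrf1KO at 0.40 ± 0.06, and Zfand1 gave 0.46 ± 0.16 (adjusted p = 0.012; 0.36 and not called without WT DMSO replicate 1).

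Several inductions seen in WT were small or missing in Nrf1KO. The most negative interaction among well-counted genes was that of Calr3, a testis-type relative of the ER chaperone calreticulin. It rose from 1.42, 1.48 and 1.33 CPM to 48.2, 50.2 and 51.9 in WT and from 2.04, 1.91 and 2.62 to 4.16, 4.66 and 4.69 in Nrf1KO, an interaction of -4.15 ± 0.22 (adjusted p = 8.3e-17). At 6 h it stood at 18.2, 19.01 and 19.1 CPM in WT and 1.25, 2.08 and 1.80 in Nrf1KO. The kinesin gene Kif5a rose from 1.98, 2.13 and 1.52 to 7.01, 9.23 and 8.24 CPM in WT and fell from 1.25, 2.29 and 1.81 to 0.915, 0.943 and 1.27 in Nrf1KO (-2.91 ± 0.30). The same opposed form held for 361 of the 6643 well-counted genes with a called interaction outside the set-aside lists. They include the interleukin-33 receptor Il1rl1, which rose from 173, 192 and 193 to 351, 333 and 350.4 CPM in WT and fell from 489.5, 480.0 and 459 to 249, 248 and 240.1 in Nrf1KO, the reelin receptor Lrp8 (-1.87 ± 0.06), Lin54, the DNA-binding subunit of the MuvB cell cycle complex (-1.80 ± 0.07), Fam83h (-1.78 ± 0.20) and the transcript Gm14005 (-2.50 ± 0.24).

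The promoter of Calr3 is printed for its antioxidant response element, the site that Nrf1 and NRF2 share (TGACNNNGC; here GCAGAGTCA, the other strand, in capitals). It is 1 of 2 start sites that RefSeq lists, at chr8:72435107-72435406 on the minus strand of GRCm38.p6. The promoter of the other start site does not hold the element.
Calr3: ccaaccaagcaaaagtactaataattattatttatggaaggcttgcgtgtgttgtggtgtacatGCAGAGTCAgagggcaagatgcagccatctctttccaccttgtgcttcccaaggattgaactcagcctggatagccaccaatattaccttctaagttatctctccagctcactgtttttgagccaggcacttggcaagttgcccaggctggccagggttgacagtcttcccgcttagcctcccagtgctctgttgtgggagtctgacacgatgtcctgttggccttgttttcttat
The element is in 14.3% of the promoters of the genes tested, in 5 of 29 promoters of the core proteasome genes (17.2%) and in 5 of 20 of the assembly and associated genes (25%). For the genes with interactions of at least 1, under 80% matched the promoter table (73.2% of the positive and 76.9% of the negative), so no share is given for them.

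The antioxidant genes divided at 24 h. Of 31 tested, 15 were more negative and 6 more positive in Nrf1KO, with 10 not called and a median of -0.14. Keap1, the adaptor that targets NRF2 for degradation, rose from 55.03, 55.4 and 53.4 to 81.02, 86.3 and 82.1 CPM in WT and fell from 56.6, 53.9 and 55.7 to 28.2, 29.01 and 28.8 in Nrf1KO (-1.56 ± 0.07). The heme transporter Slc48a1 (-1.21 ± 0.05), glutathione reductase Gsr (-1.04 ± 0.06) and catalase (-0.84 ± 0.06 for Cat) also had negative interactions. In the other direction Nqo1, the quinone reductase widely used as an NRF2 readout, fell from 120.0, 110.0 and 109 to 76.95, 78.5 and 78.8 CPM in WT and rose from 94.2, 96.3 and 97.1 to 135, 140.2 and 136 in Nrf1KO (1.05 ± 0.05). The sulfiredoxin gene Srxn1 reached 594, 598 and 597 CPM in WT and 1074, 1083 and 1084 in Nrf1KO (0.72 ± 0.05), and Gclc, the catalytic subunit of glutathione synthesis, was at 0.70 ± 0.06. Core genes of the set such as Txnrd1 (-0.04), Sqstm1 (-0.09) and G6pdx (-0.08) were not called. A list of 8 tested CNC-bZIP and Maf genes, which also holds Keap1 and the targeted Nfe2l1 (-0.15), had 6 more negative members, those 2 among them, and 1, the repressor Bach1 at 0.30 ± 0.06, was more positive. Maff, a small Maf partner, was at -0.66 ± 0.13 and Nfe2l2, which encodes NRF2, at -0.34 ± 0.05. Of the Keap1 exon sequence, 10.9% lies over a gene on the other strand.

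Most genes of the respiratory chain fell a little in Nrf1KO and went both ways in WT. Of 30 nuclear-encoded subunits, 26 had a negative interaction, 4 were not called and none was positive. No member reached -1, the median was -0.32, and in WT 14 rose and 13 fell (median response -0.02), while in Nrf1KO 1 rose and 23 fell (median -0.48). Ndufa4 went from 192, 184 and 182 to 235, 245 and 244 CPM in WT and from 198, 196 and 195 to 118, 133 and 143 in Nrf1KO (-0.95 ± 0.06). The complex I subunit gene Ndufs1 was at -0.79 ± 0.05 and the succinate dehydrogenase genes Sdha, Sdhb, Sdhc and Sdhd ranged from -0.76 to -0.26. Cox4i1 of complex IV (0.07) was not called.

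The ribosomal protein genes shifted together in the other direction. Of 32 tested, 29 had a positive interaction, 3 were not called and none was negative, and the median was 0.30. They rose slightly with CFZ in WT (median 0.32) and more in Nrf1KO (median 0.60). With DMSO 22 of the 32 were already lower in Nrf1KO and 4 higher, with a median difference of -0.15. The shares over all genes tested were 29.1% lower and 25.7% higher. After CFZ, 17 had every Nrf1KO library above every WT library, and 1 had every one below. Rps20 rose from 823, 812 and 778 to 977, 987 and 1030.0 CPM in WT and from 688, 706 and 686 to 1141, 1274 and 1314 in Nrf1KO (0.53 ± 0.06), and Rpl3 had the most positive value of the list (0.73 ± 0.06). Ribosomal protein genes have many near-identical pseudogenes, and 26% of the Rpl3 sequence is shared with another gene, so reads may be split between copies. The 25 ribosome biogenesis genes showed no common direction, with 8 more positive and 10 more negative, although nucleophosmin (Npm1, 0.83 ± 0.05) and nucleolin (Ncl, 0.45 ± 0.05) were more positive.

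Transcripts that host small nucleolar RNAs, whose spliced forms are typical targets of nonsense-mediated decay, had mostly positive interactions. Of the 19 tested snoRNA host and decay-linked genes, 11 were more positive, 2 more negative and 6 not called. With DMSO 10 of the 19 were already lower in Nrf1KO and 3 higher, with a median difference of -0.16. After CFZ, 11 had every Nrf1KO library above every WT library, and 5 had every one below. Snhg5 rose from 33.6, 36.3 and 36 to 80.4, 82.5 and 84.7 CPM in WT and from 25.9, 28.7 and 26.8 to 226, 244 and 258 in Nrf1KO (1.93 ± 0.08). Snhg12 (1.79 ± 0.10), Snhg1 (1.68 ± 0.07), Snhg6 (1.61 ± 0.14) and Snhg8 (1.36 ± 0.09) were the other members above 1. Among decay factors in the list, Smg5 was more negative (-0.45 ± 0.05), while Upf1 (0.08), Upf2 (-0.07), Upf3b (-0.10), Smg1 (-0.08) and Smg6 (0.13) were not called. Reads of the small RNAs within their introns cannot be separated from those of the hosts where the annotation overlaps.

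**Figure D3:**
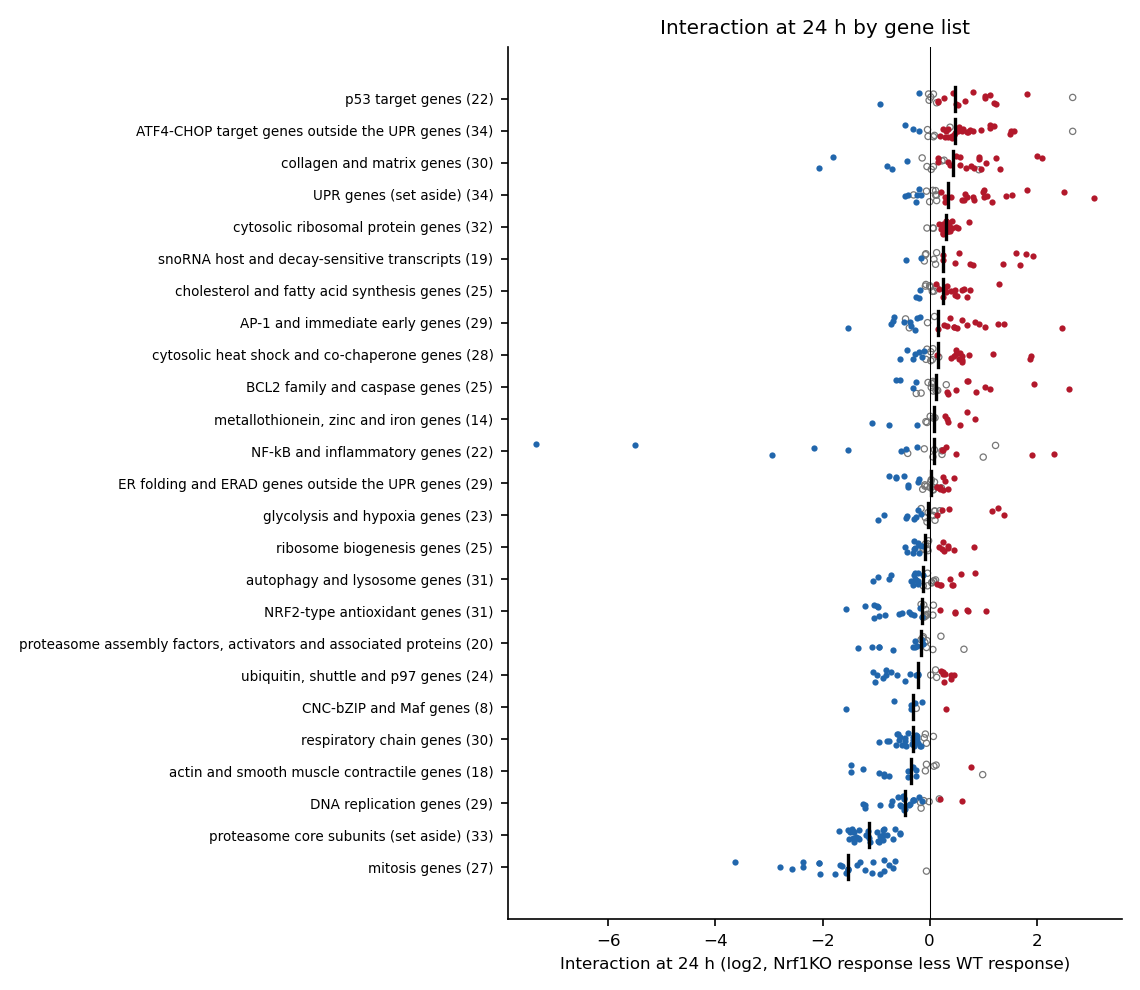
Interaction at 24 h (x axis, log2) of every tested member of 25 gene lists, with the number tested in brackets and the 2 set-aside lists marked; red and blue points were called more positive and more negative, open grey points were not called, and the black bar is the list median. Mitosis genes have the lowest median (-1.53), p53 and ATF4-CHOP targets the highest (0.46 and 0.47), and Il33 and Ccl5, with few reads, are the 2 points beyond -5.

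Targets of ATF4 and CHOP outside the set-aside UPR genes were mostly higher in Nrf1KO cells than the WT response would give. Of 34 tested, 25 had a positive interaction, 3 a negative one and 6 were not called. The median was 0.47, and 6 members reached 1. The median response was -0.42 in WT and 0.19 in Nrf1KO. For many members the difference was thus a fall in WT that was smaller or missing in Nrf1KO. With DMSO 24 of the 34 were already lower in Nrf1KO and 2 higher, with a median difference of -0.24. Over all genes tested 29.1% were lower and 25.7% higher. After CFZ, 20 of the 34 had every Nrf1KO library above every WT library, and 7 had every one below. Pck2, a mitochondrial gluconeogenic enzyme, fell from 213, 216 and 214 to 39.1, 37.2 and 41.1 CPM in WT and from 167, 169 and 157 to 87.2, 81.2 and 88.3 in Nrf1KO (1.51 ± 0.06). Pycr1, which makes proline, was at 1.50 ± 0.13. Stbd1, a glycogen-binding protein, kept its level in WT (37.7, 38.9 and 37.7 CPM with DMSO and 38.4, 34.7 and 37.4 with CFZ) and rose from 20.6, 18.97 and 19.01 to 53.2, 56.8 and 57.5 in Nrf1KO (1.58 ± 0.08), and the pseudokinase gene Trib3, a CHOP target, was at 1.20 ± 0.06. Atf4 itself was not called (-0.04). The more negative members were Atf5 (-0.32 ± 0.05), the alanyl-tRNA synthetase gene Aars (-0.46 ± 0.04) and the death receptor gene Tnfrsf10b (-0.20 ± 0.07).

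Pck2 and Pycr1 each have 1 C/EBP-ATF response element in the promoter, which is why these 2 windows are shown (TGATGNAA or its other strand in capitals, 300 bases, GRCm38.p6). The element is in 2.25% of the promoters of the genes tested. Pck2 lies at chr14:55540016-55540315 on the plus strand and Pycr1 at chr11:120643699-120643998 on the minus strand.
Pck2: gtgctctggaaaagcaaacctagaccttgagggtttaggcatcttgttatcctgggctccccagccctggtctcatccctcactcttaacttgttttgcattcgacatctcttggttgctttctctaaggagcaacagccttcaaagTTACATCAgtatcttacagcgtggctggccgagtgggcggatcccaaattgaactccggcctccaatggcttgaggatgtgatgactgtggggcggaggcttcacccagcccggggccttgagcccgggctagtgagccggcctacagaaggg
Pycr1: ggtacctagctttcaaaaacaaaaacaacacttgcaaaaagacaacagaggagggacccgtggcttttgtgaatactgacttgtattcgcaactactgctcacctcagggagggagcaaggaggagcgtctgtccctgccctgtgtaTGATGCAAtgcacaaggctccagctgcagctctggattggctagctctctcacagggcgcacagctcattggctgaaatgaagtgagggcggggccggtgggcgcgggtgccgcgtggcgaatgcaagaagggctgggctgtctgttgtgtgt
Of the list, 26 of 34 genes matched the promoter table, too few for a share.

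The p53 target genes leaned to the positive side. Of 22 p53 target genes, 14 were more positive and 2 more negative in Nrf1KO, with a median of 0.46, while Trp53 itself was not called (-0.01). Trp53inp1, a pro-death p53 target, rose from 55.03, 51.1 and 50.5 to 66.5, 61.04 and 61.2 CPM in WT and from 39.6, 39.3 and 39.3 to 175, 161 and 163 in Nrf1KO (1.82 ± 0.06). The cell cycle inhibitor Cdkn1a (p21) was at 1.21 ± 0.05 and the receptor gene Eda2r at 1.24 ± 0.07. The 2 more negative members were both death receptor genes. Fas rose in WT alone (-0.92 ± 0.17), and Tnfrsf10b was at -0.20 ± 0.07 (adjusted p = 0.013). Gdf15, which like Tnfrsf10b is also in the ATF4-CHOP list, had a point value of 2.67 but near 0 reads with DMSO. It was not called (adjusted p = 0.092).

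Within the 25 BCL2 family and caspase genes, 10 were more positive and 4 more negative, with 11 not called. The 4 members of at least 1, all positive, were genes of pro-death BH3-only proteins. Bcl2l11, which encodes BIM, fell from 21.4, 19.4 and 20.9 to 10.4, 9.11 and 8.24 CPM in WT and rose from 11.8, 14.96 and 13.2 to 22.9, 22.5 and 22.3 in Nrf1KO (1.94 ± 0.12). Bmf almost disappeared in both lines but less so in Nrf1KO, from 32.2, 29.6 and 29.97 to 0.813, 0.600 and 0.868 CPM in WT and from 15.2, 15.02 and 14.3 to 2.18, 2.61 and 1.84 in Nrf1KO (2.61 ± 0.24). Pmaip1 (NOXA, 1.12 ± 0.14) and Bbc3 (PUMA, 1.04 ± 0.12) were also more positive. The effector Bax (0.07) was not called, and Bak1 (-0.55 ± 0.06) and Diablo (-0.62 ± 0.06) were more negative, with 25.5% of the Bak1 exon sequence over a gene on the other strand.

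Cytosolic chaperones rose in both lines, with median responses of 1.47 in WT and 1.62 in Nrf1KO. Of 28 tested, 14 were more positive and 7 more negative in Nrf1KO. The inducible HSP70 genes differed most: Hspa1b rose from 27.3, 24.7 and 28.9 to 76.95, 80.05 and 78.5 CPM in WT and from 38.1, 32.5 and 33.8 to 376, 379 and 368 in Nrf1KO (1.89 ± 0.07), and Hspa1a was at 1.87 ± 0.25. Of their stretches as long as 1 read, 43.8% (Hspa1a) and 44.8% (Hspa1b) occur in another HSP70 gene, so reads may be split between them. The HSP40 gene Dnajb1 was at 1.18 ± 0.07 and Hspa8 at 0.50 ± 0.05, while the transcription factor genes Hsf1 (-0.42 ± 0.06) and Hsf2 (-0.55 ± 0.06) were more negative.

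Signalling genes were called in both directions. Of 29 AP-1 and immediate early genes, 15 were more positive and 10 more negative. Fosl1, an AP-1 subunit, rose to 69.7, 66.6 and 66.01 CPM in WT and 55.4, 55.9 and 51.3 in Nrf1KO from unequal starts (-1.53 ± 0.11; 57.2% of its exon sequence lies over a gene on the other strand), and Ier2 was at 1.28 ± 0.11. Of 22 NF-kB and inflammatory genes, 6 were more positive and 8 more negative, shares close to the 29.7% and 30.0% of all genes tested. The monocyte chemokine genes Ccl2 and Ccl7 were more positive (1.92 ± 0.19 and 2.33 ± 0.15), with Ccl2 at 10.9, 11.1 and 10.9 CPM in WT and 52.1, 58.03 and 57.8 in Nrf1KO after 24 h. The neutrophil chemokine genes Cxcl1 (-1.53 ± 0.21) and Cxcl5 (-2.95 ± 0.18) were more negative, and Cxcl5 was already higher in Nrf1KO with DMSO (26, 25.3 and 25.4 CPM against 5.02, 4.61 and 3.91). Il33 and Ccl5, singled out for their size after their values were seen, had fewer reads than the minimum for naming. Ccl5, a T-cell chemokine, had no read in WT with DMSO and stood at 6.00, 5.76 and 6.07 CPM in WT and 0.845, 0.832 and 0.381 in Nrf1KO after CFZ. Il33, a nuclear cytokine, had no read in WT with DMSO and 1.12, 1.34 and 1.16 CPM in Nrf1KO, where it fell to 0.0704, 0.0555 and 0.0634 with CFZ. No fold is given for either, since each rests on groups at 0.

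Most matrix genes of the fibroblast fell in both lines (25 of 30 in WT and 24 in Nrf1KO), and most had a positive interaction. Of the 30, 18 were more positive and 5 more negative, with a median interaction of 0.43. The median response was -1.42 in WT and -1.15 in Nrf1KO. With DMSO 17 of the 30 were already lower in Nrf1KO and 7 higher, with a median difference of -0.28. Among all genes tested, 29.1% were lower and 25.7% higher with DMSO. After CFZ, 14 had every Nrf1KO library above every WT library, and 10 had every one below. Col3a1 fell from 1639, 1516 and 1624 to 110.5, 116 and 114 CPM in WT and from 1390.0, 1324 and 1300.0 to 399, 384 and 367 in Nrf1KO (2.0 ± 0.06). Postn, periostin, was at 2.09 ± 0.11 but stood at 14.5, 16.2 and 16.9 CPM with DMSO in Nrf1KO against 63.4, 60.8 and 62.4 in WT, so its smaller fall began from a lower level. Tnc was at 1.32 ± 0.13, Dcn at 1.23 ± 0.09 and Col1a2 at 0.96 ± 0.07. Col1a1, at 0.27, was not called, and Ctgf and Cyr61, given above, were the most negative members of this list. The summed fibroblast markers, which include genes of this kind, ranged from 8880 to 9180 CPM in WT and from 11600 to 13600 in Nrf1KO after 24 h of CFZ, and their part in the result was not tested.

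Lipid synthesis showed a weaker form of the same pattern. Of 25 cholesterol and fatty acid synthesis genes, 15 were more positive and 3 more negative, with a median of 0.25. With DMSO 15 of the 25 were already higher in Nrf1KO and 2 lower, with a median difference of 0.10. Dhcr7, the last enzyme of cholesterol synthesis, fell from 43.4, 42.9 and 45.9 to 20.03, 21.4 and 23.6 CPM in WT and went from 41.04, 43.2 and 40.99 to 55.1, 50.1 and 47.8 in Nrf1KO (1.30 ± 0.08), and Scd2, a fatty acid desaturase, was at 0.75 ± 0.06.

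The most positive interactions among well-counted genes came from no single list. Adamts1, a secreted metalloproteinase that cuts proteoglycans, stayed near its DMSO level in WT (159, 167 and 158 CPM with DMSO and 151, 148 and 147 with CFZ) and rose from 131, 118 and 118 to 778, 732 and 675 in Nrf1KO. Its interaction was 2.70 ± 0.06 (adjusted p = 9.5e-25), and the Nrf1KO libraries with CFZ did not overlap any other group. Mex3b, an RNA-binding ubiquitin ligase, fell from 12.6, 10.4 and 11.4 to 6.40, 7.20 and 7.07 CPM in WT and rose from 8.60, 9.29 and 8.79 to 34.5, 35.6 and 31.6 in Nrf1KO (2.66 ± 0.14). Traf4, an adaptor of TNF-family receptors, fell from 32.5, 32.95 and 33.4 to 17.3, 19.01 and 16.9 in WT and rose from 28.8, 28.3 and 30.5 to 89.01, 90.3 and 86.6 in Nrf1KO (2.48 ± 0.08).

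Among the 12 most positive genes taken in order, Mex3b was the first with a listed promoter that holds an antioxidant response element, as Calr3 was among the most negative. Its 2 matches to TGACNNNGC are in capitals (chr7:82867083-82867382, plus strand, GRCm38.p6).
Mex3b: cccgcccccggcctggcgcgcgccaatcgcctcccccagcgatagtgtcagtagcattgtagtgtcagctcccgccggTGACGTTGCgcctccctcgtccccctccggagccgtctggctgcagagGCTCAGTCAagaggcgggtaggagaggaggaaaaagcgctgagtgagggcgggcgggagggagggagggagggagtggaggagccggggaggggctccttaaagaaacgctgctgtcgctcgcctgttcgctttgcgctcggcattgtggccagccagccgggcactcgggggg
The element thus stands in the printed promoters of both Mex3b and Calr3, whose interactions have opposite signs. Both promoters were printed because they hold it.

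Opposed responses of the Traf4 kind, lower in WT and higher in Nrf1KO, were found for 360 of the 6643 well-counted genes with a called interaction. The other orientation had 361. Besides Traf4, Car6, a secreted carbonic anhydrase (2.43 ± 0.08), Ostn, a secreted peptide (2.55 ± 0.29), S1pr1, a receptor for sphingosine-1-phosphate (2.0 ± 0.10), the planar polarity gene Prickle1 (2.26 ± 0.21) and Tnfaip6, a hyaluronan-binding protein (1.63 ± 0.12) ranked highest by the smaller of their 2 responses. Kctd15 and the T-type calcium channel gene Cacna1g fell mainly in WT: Kctd15 fell from 51.6, 51.2 and 50.4 to 8.74, 8.81 and 9.73 CPM in WT and stayed between 34.8 and 37.9 in Nrf1KO with or without CFZ (2.43 ± 0.08), and Cacna1g had an interaction of 2.51 ± 0.29. Tmem44 was at 2.64 ± 0.22. Krt16, a stress keratin of epithelia, reached similar levels with CFZ in both lines (8.13, 7.67 and 7.44 CPM in WT and 6.62, 6.66 and 5.83 in Nrf1KO), and its interaction was 3.36 ± 0.28. With DMSO it was lower in Nrf1KO (0.591, 0.191 and 0.231 CPM) than in WT (4.21, 3.48 and 4.38 CPM), and 20.5% of its sequence is shared with other genes.

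Some of the extreme values rest on very few reads. Sparcl1 had 118 reads over the 3 WT DMSO libraries and 0 over the WT libraries with CFZ, against 884 and 22 in Nrf1KO. Smoc2, a secreted matrix protein, had 698 and 5 reads in WT and 500 and 36 in Nrf1KO, and the growth factor gene Igf1 75 and 4 in WT and 1371 and 9 in Nrf1KO. These 3 were called (adjusted p of 0.041, 4.2e-05 and 0.017), but the size of their interactions depends on a handful of counts and is not given. Leaving out single libraries ended the call for Sparcl1 (5 of them, among them each WT library with CFZ) and for Igf1 (WT with CFZ, replicate 2 or 3).

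Some large responses were called in both lines with no call for a difference. With a response of at least 2 (log2) the same way in both lines and no call for the interaction, 33 well-counted genes rose and 68 fell. Dusp4, a phosphatase that switches off MAP kinases, rose from 0.203, 0.354 and 0.862 to 25.01, 22.96 and 23.1 CPM in WT and from 2.10, 2.23 and 2.20 to 87.2, 91.5 and 82.2 in Nrf1KO. Its interaction was -0.38 ± 0.33, with a 95% interval from -1.02 to 0.25, and without WT DMSO replicate 3 it was called (-1.07), so a difference of that size could be missed. Wisp2, a matricellular protein, fell from 116, 122 and 117 to 1.63, 2.70 and 2.54 CPM in WT and from 10.8, 11.3 and 12.9 to 0.211, 0.277 and 0.127 in Nrf1KO (95% interval of the interaction -0.82 to 0.53). The circadian factor Dbp (-0.25 to 0.80) and the R-spondin receptor Lgr5 (-0.88 to 2.0) fell in both lines as well. Skint7, Rnf183 and Gm5886 rose from at most 30 reads over 3 DMSO libraries and Cdh26 fell to at most 4 reads over 3 CFZ libraries. Their missing call rests on SEs too large to say whether the responses differ.

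The remaining lists had medians between -0.12 and 0.08. For comparison with their counts, 29.7% of all genes tested were called more positive and 30.0% more negative. The counts of the ER list were close to these shares. Of 31 autophagy and lysosome genes, 15 were more negative and 8 more positive. Atp6v1h, a subunit of the lysosomal proton pump, was at -0.96 ± 0.06, the protease gene Ctsd at -1.05 ± 0.06 (29.2% of its sequence is shared with another gene) and Ctsl at 0.85 ± 0.06 (26.8% of its exon sequence lies over a gene on the other strand). Of 29 ER folding and degradation genes outside the UPR list, 9 were more positive and 8 more negative, from -0.75 for Fkbp14 to 0.45 for Edem1. Of 23 glycolysis and hypoxia genes, 6 were more positive and 8 more negative: the glycolytic enzyme gene Aldoa was at -0.96 ± 0.05, while Pfkfb3, which stimulates glycolysis, rose in Nrf1KO alone (15.6, 16.7 and 16.8 CPM in WT and 50.8, 49.5 and 48.6 in Nrf1KO with CFZ, 1.39 ± 0.09), and Ndrg1 was at 1.27 ± 0.05. Of 14 metallothionein, zinc and iron genes, 6 were more positive and 3 more negative. The iron importer genes Slc11a2 (-1.08 ± 0.06) and Tfrc (-0.75 ± 0.08) rose less in Nrf1KO, and the zinc importer gene Slc39a10 fell less (0.84 ± 0.08).

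The interaction at 6 h uses the same DMSO libraries, so the 2 times are set side by side and the difference between them, in which DMSO cancels, is the test. At 6 h, 19.8% of all genes tested were called more positive and 18.4% more negative in Nrf1KO, and the median size of the interaction outside the set-aside lists was 0.20 at 6 h and 0.31 at 24 h. Of the 470 genes with larger positive values at 24 h, 276 were called the same way at 6 h, 190 were not called and 4 were called the other way. For the 515 negative genes the counts were 276, 220 and 19. The difference between the times was called in the direction of the 24 h value for 308 of the 470 and 375 of the 515. Over all genes tested, 20.7% were called more positive and 22.2% more negative at 24 h than at 6 h.

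**Figure D4:**
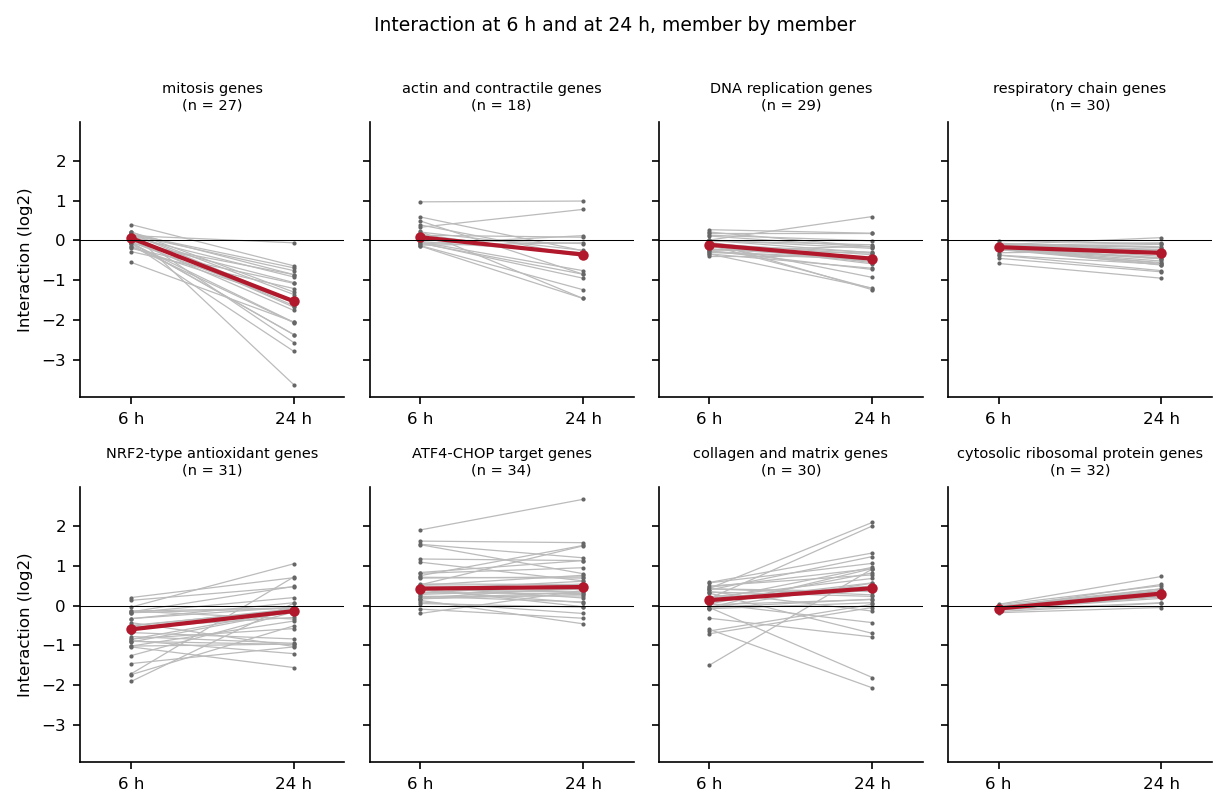
Interaction (log2, y axis) of each tested member of 8 gene lists at 6 h and at 24 h, joined by grey lines; the red line joins the list medians. Mitosis genes go from a median of 0.06 to -1.53, ribosomal protein genes move from below to above 0, and the antioxidant genes rise from -0.60 to -0.14, while the median of the ATF4-CHOP targets is similar at both times.

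The mitosis genes showed no common direction at 6 h. Of the 27 mitosis genes, 7 were more positive and 4 more negative at 6 h, with a median of 0.06, and 26 were more negative at 24 h than at 6 h. Cenpf stood at 139, 124 and 126 CPM in WT and 148, 134 and 130.2 in Nrf1KO at 6 h, levels that overlap. The actin genes had 7 more positive and 1 more negative call of 18 at 6 h, where 19.8% and 18.4% of all genes tested were called in those directions, and 12 were more negative at 24 h than at 6 h. The ribosomal protein genes had 0 positive and 1 negative call at 6 h, and 31 of 32 were more positive at 24 h than at 6 h. Collagen and matrix genes gave 18 more positive and 6 more negative at the later time.

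The antioxidant genes moved the other way between the times. At 6 h, 27 of 31 were more negative and 1 more positive in Nrf1KO, with a median of -0.60, and 21 of 31 were more positive at 24 h than at 6 h. Srxn1 stood at 444, 432 and 424 CPM in WT and 144, 142 and 148 in Nrf1KO at 6 h, with WT higher, and at 594, 598 and 597 and 1074, 1083 and 1084 at 24 h, with Nrf1KO higher. Its interaction went from -1.72 to 0.72, and the difference between the times was 2.44 (adjusted p = 5e-27). Zfand2a crossed in the same way, from -1.16 to 0.40. The ATF4-CHOP targets changed less between the times: 29 of 34 were more positive in Nrf1KO at 6 h, with a median of 0.42, and the later time was more positive for 8 and more negative for 10. Of the 30 respiratory chain genes, 17 already had a negative interaction at 6 h, and 17 were more negative at 24 h than at 6 h.

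A change of sign with a call at both times was found for 245 genes outside the set-aside lists. Among the 6643 well-counted genes with a called interaction at 24 h, 82 went from negative to positive and 158 from positive to negative. Procr, the endothelial protein C receptor, was at -0.65 at 6 h and 1.06 at 24 h, and rose to 113, 109 and 111 CPM in WT and 259, 262 and 281 in Nrf1KO. The protease inhibitor gene Serpinb1a (-0.64 and 1.86) and the actin-bundling protein gene Fscn1 (-0.61 and 0.72) changed likewise. Thrombomodulin (Thbd) went the other way, from 0.64 to -0.73. Its levels at 6 h were 71.2, 75.4 and 71.7 CPM in WT and 134, 128 and 130.0 in Nrf1KO, and at 24 h 86, 86.7 and 92.8 and 64.7, 62.1 and 58.98. Sapcd2 (1.04 and -0.98), E-cadherin (Cdh1, 0.91 and -1.33) and Plin4 (0.77 and -0.87) shared that course. The last 2 had few reads at 24 h, and the call was lost for Cdh1 without replicate 1 of WT with CFZ (-1.06) and for Plin4 without replicate 2 of WT (-0.74) or of Nrf1KO with CFZ (-0.65).

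As a description of the genes with larger interactions, length and GC were taken from the longest annotated transcript of each gene. One was found for 11597 of the 11695 genes outside the set-aside lists, 463 of the 470 positive and 514 of the 515 negative genes. The median length was 3458, 3486 and 3135 bases in that order. The median GC content was 49.4%, 51.2% and 49.3%.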

How the data were processed

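The authors made stranded mRNA libraries, sequenced paired reads, aligned them with STAR within the RNA Express workflow (which compares groups with DESeq2) and deposited 1 table of raw counts, whole reads per gene symbol and library without normalization. The genome build, annotation, versions and use of strand are not given in the sources used here. The labels give each sample's group and replicate number.

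Counts were analysed with edgeR 4.0.16 (limma 3.58.1, R 4.3.3): expression filter (minimum count 10, total 15), TMM scaling, 1 quasi-likelihood model of 6 groups over 18 libraries, and Benjamini-Hochberg adjustment over 11762 genes. The DMSO and 24 h libraries give the interaction. SE is the log2 value divided by the square root of F. Levels are TMM-scaled CPM, except the marker sums, which were scaled to library size alone. Of the 23420 symbols, 27 had been turned into dates by a spreadsheet and cannot be named. Exon overlap, shared stretches of 1 read's length, length and GC came from GENCODE M21 (GRCm38), and promoters from RefSeq.

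Named genes were Nfe2l1, then, at a mean count of at least 50 (well-counted), the 12 most positive and 12 most negative interactions, 6 opposed responses each way, 4 shared responses each way, the 2 most positive and 2 most negative members called in each list, and 4 changes of sign each way between 6 and 24 h. Other members were named from the lists after their values were seen, to describe them. The members and lists were chosen with earlier results of these data known, the lists overlap, and they are described by counts and medians without a test of the list.

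Alternatives were DESeq2 1.42.0, upper-quartile scaling, library size alone, a model of the 4 groups alone, no filter, a minimum mean count of 10, a replicate block, and each library left out. The steps were tested on simulated counts. No pair of replicates agreed within sampling noise (chi-square per degree of freedom 1.438 to 8.469). The excess was uneven. Pairs of Nrf1KO libraries gave 3.292 to 8.469 with CFZ for 24 h and 2.505 to 5.504 with DMSO. Pairs of WT libraries gave 1.462 to 1.604 and 1.77 to 2.495. The model takes 1 spread per gene over the 6 groups, so the SEs do not show this difference between groups.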

Additional observations from a re-analysis of the deposited data

Results flagged for a closer look

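The response to 24 h of CFZ differed between WT and Nrf1KO cells, by the interaction test itself, for 3498 genes in the positive and 3532 in the negative direction over all genes tested, set-aside genes included, and by at least 1 on the log2 scale for 479 and 533 of them. The interaction in turn differed between 6 and 24 h for 5054 genes. Among well-counted genes with calls of opposite sign at the 2 times, the 24 h value lay above the 6 h value by 2.44 for Srxn1, 1.71 for Procr, 2.50 for Serpinb1a and 1.33 for Fscn1. It lay below the 6 h value for the others, by a log2 difference of -2.02 for Sapcd2, -2.24 for Cdh1, -1.64 for Plin4 and -1.37 for Thbd, and all 8 differences were called.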

How the results depend on the processing

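The 8 counts over all genes stayed within 1.5 times their value under all 25 alternatives. DESeq2 called 3250 genes more positive and 3256 more negative, upper-quartile scaling 3756 and 3312, and library size alone 2828 and 4236, which moved the positive share of calls from 49.8% to 40% and the median of all genes by -0.078. Leaving out 1 library at a time gave 3305 to 3507 positive and 3349 to 3564 negative calls, 462 to 484 and 521 to 548 of at least 1, and 4620 to 5064 for the difference between the times. In the same way the calls ranged from 9585 to 9953 for the WT response, 9815 to 10117 for the Nrf1KO response and 5765 to 6564 for the lines with DMSO. With a replicate block in the model, 3557 genes were more positive and 3583 more negative. Libraries with the same replicate number deviated together only weakly (18 pairs, mean correlation 0.0117, lowest -0.0178, highest 0.0972). Counting noise lowers such correlations, so they cannot decide whether equal numbers mark libraries prepared together. No named gene changed sign where the main fit or the alternative called it. A change of sign without a call in either was not counted. Of 132 named genes, 9 lost their call under at least 1 alternative (Cdh1, Cdt1, Igf1, Mvk, Plin4, Sparcl1, Srsf2, Tnfrsf10b and Zfand1), and Mvk did so under 9, Sparcl1 with DESeq2 and Cdt1 with library size alone (0.11). All list medians stayed within 0.1, and 14 of 1250 list counts moved by over 1.5 times, each a count of at most 5 genes. Genes with few reads in a group, such as Sparcl1, Igf1 and Smoc2, are limited by depth.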
